A study of Mus musculus with 6 samples.

Results

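The 10 genes described here encode molecules by which lymphocytes are held in, or leave, the gut epithelium, together with their counterparts on epithelial cells. They were taken by name from the deposited table: the lymphocyte-side genes Itgae, Itgb7, Cd69, Rgs1, S1pr1 and Klf2, the further lymphocyte genes Gpr18 and Srgn, and the epithelial partners Cdh1 and Epcam. All 10 were found among 46078 gene rows and all 10 passed the filter on low counts, which left 16757 tested genes. RNA came from the epithelial fraction of mouse colon, the cells that come off the tissue in a wash with EDTA and DTT, in 3 wild type libraries and 3 libraries of mice labelled Lingo2-/- (called mutant). The mice of both groups were aged 2 months and were kept under naive conditions. The labels do not give the design of the Lingo2 allele, the strain, or whether each library was a separate animal, so a p-value covers how these libraries vary, and that variation may be technical.

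Lymphocytes lie between the cells of the gut epithelium and stay there for long periods. The integrin made of the alpha E chain (Itgae, CD103) and the beta 7 chain (Itgb7) binds E-cadherin (Cdh1), the adhesion protein of epithelial junctions. Exit from a tissue runs in the opposite direction, through the receptor S1pr1, which follows sphingosine-1-phosphate (S1P) toward blood and lymph. The transcription factor Klf2 switches on S1pr1 in T cells, and the membrane lectin Cd69 binds S1pr1 protein and removes it from the cell surface.

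Wild type libraries held 25010618 to 28029583 gene reads and mutant libraries 7060769 to 13047682, which makes mutant values of low genes the less precise. Mitochondrial genes took 45.3% to 48.4% of the wild type gene reads and 35.7% to 39.8% of the mutant ones. The targeted gene Lingo2 was read 0, 7 and 0 times in wild type replicates 1 to 3 and 1, 1 and 0 times in the mutant ones, too rarely to check the genotype labels. The fraction carried its epithelial label: the 16 epithelial marker genes summed to 5513 to 6331 in wild type against 5708 to 6448 in the mutant, in CPM (reads scaled to library size, with TMM factors). None of the 16 passed edgeR's test between genotypes, nor DESeq2's or limma's, and 2 had an unadjusted p under 0.05. T cell markers were present in both groups as well. The 20 T cell and intraepithelial lymphocyte markers summed to 402.5 to 470.8 CPM in wild type against 206.2 to 229.9 CPM in the mutant. Of the 20, 18 were lower in the mutant by edgeR's test, beside 1.52% lower over all tested genes. B and plasma cell markers had a median log2 fold change of 0.59. None of the 10 passed edgeR's test (3 at an unadjusted p under 0.05, 1 by DESeq2, 0 by limma), but 4 did with wild type replicate 2 left out and 1 with mutant replicate 1 left out.

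Of the 10 genes, 5 were lower in the mutant libraries, Itgae, Itgb7, Cd69, Rgs1 and Srgn, and none was higher. The test was edgeR's quasi-likelihood test, and a gene was called where its p, adjusted over all tested genes after Benjamini and Hochberg (the edgeR adjusted p), lay under 0.05. Of all tested genes 2.57% were called, 1.52% lower and 1.04% higher. The lymphocyte side had 4 of 6 genes lower with a median log2 fold change of −1.10, against 0.001 over all tested genes, and neither epithelial partner passed. In a bulk sample, fewer cells of a type and less RNA per cell cannot be told apart.

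Promoter sequence was at hand for 5 of the 10 genes in a RefSeq table (GRCm38.p6). The 4 windows shown hold the 250 bases before the start of Itgb7 and Srgn, which fell, and of Klf2 and Epcam, which did not pass. They are written 5′ to 3′ on the gene's strand, and capitals mark exact matches on either strand to CACCC (the core of the KLF box) or CAGAC (the core of the SMAD box); the search for TGTGGT (RUNX) and TCACAC (T-box) had no match in these 4. The table holds a second Srgn window, not printed, at chr10:62507758-62508007 (minus strand), with 2 KLF matches, 1 SMAD match and 1 RUNX match. The Gpr18 window, also not printed, had 1 RUNX match and no KLF or SMAD match. Bases just after its start were not found in the annotated transcripts of Gpr18. Itgb7 lies at chr15:102231936-102232185 (minus strand), Srgn at chr10:62527446-62527695 (minus strand), Klf2 at chr8:72318812-72319061 (plus strand) and Epcam at chr17:87635729-87635978 (plus strand).
Itgb7: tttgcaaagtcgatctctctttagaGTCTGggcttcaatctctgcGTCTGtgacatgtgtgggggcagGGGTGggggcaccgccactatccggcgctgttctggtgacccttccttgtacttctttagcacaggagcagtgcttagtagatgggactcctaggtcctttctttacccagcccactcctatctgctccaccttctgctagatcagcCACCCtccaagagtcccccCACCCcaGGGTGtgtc
Srgn: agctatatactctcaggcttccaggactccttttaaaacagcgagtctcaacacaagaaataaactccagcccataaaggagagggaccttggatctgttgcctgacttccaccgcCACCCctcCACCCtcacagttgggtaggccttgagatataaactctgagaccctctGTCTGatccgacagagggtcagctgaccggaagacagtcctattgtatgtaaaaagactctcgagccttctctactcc
Klf2: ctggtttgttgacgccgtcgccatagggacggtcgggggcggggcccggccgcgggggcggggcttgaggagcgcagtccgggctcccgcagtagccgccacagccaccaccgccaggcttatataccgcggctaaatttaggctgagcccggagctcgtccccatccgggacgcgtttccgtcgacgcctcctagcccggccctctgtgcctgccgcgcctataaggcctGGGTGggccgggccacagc
Epcam: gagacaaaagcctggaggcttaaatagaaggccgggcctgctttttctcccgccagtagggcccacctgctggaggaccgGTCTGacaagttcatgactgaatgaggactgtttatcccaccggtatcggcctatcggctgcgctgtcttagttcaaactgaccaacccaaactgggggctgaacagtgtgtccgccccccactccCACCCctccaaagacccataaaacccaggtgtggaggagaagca

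CACCC matched 4 times before Itgb7, 2 times before Srgn, once before Klf2 and once before Epcam. Of 32851 promoter windows of the same length in the table, 52% held at least 1 CACCC and 42.2% at least 1 CAGAC. The SMAD core matched 2 times before Itgb7, once before Srgn and once before Epcam, and had no match before Klf2. The KLF core thus stood before genes that fell and before genes that did not pass, though not in the Gpr18 window. A match describes the letters and does not show a bound site.

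The integrin that ties lymphocytes to epithelial cells was lower in the mutant libraries in both of its chains. Itgae (ENSMUSG00000005947, chromosome 11, 73090583 to 73147446, plus strand, GRCm38) stood at 45.4, 51.4 and 47.5 CPM in wild type replicates 1, 2 and 3 and at 23.9, 18.9 and 20.9 CPM in mutant replicates 1, 2 and 3. Every mutant library lay below every wild type library. The means were 48.1 ± 3.04 and 21.3 ± 2.51 CPM (SD, n = 3 in each group), a log2 fold change of −1.17 ± 0.11 (SE, edgeR adjusted p = 0.000236). The gene Haspin lies within Itgae on the opposite strand, with no shared exon.

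Itgb7, the beta 7 chain (chromosome 15, 102215995 to 102231944, minus strand), was at 26.9, 30.2 and 28.5 CPM in wild type replicates and at 14, 17.5 and 10.5 CPM in mutant replicates 1, 2 and 3. The groups did not overlap, and the mutant libraries were spread more widely than the wild type ones. The means of 28.6 ± 1.63 and 13.99 ± 3.46 CPM gave a log2 fold change of −1.03 ± 0.15 (edgeR adjusted p = 0.00356). Both chains fell by a similar amount. The number of Itgae reads for each Itgb7 read was 1.69, 1.70 and 1.67 in wild type and 1.71, 1.09 and 1.99 in mutant libraries. These ratios overlapped between genotypes (exact two-sided permutation p = 1).

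The beta 7 chain also pairs with the alpha 4 chain Itga4, in the integrin that brings lymphocytes into the gut. Itga4 stood at 20.6 ± 3.39 CPM in wild type against 20.8 ± 1.25 CPM in the mutant (log2 fold change 0.01 ± 0.13, edgeR adjusted p = 0.966). The number of Itga4 reads for each Itgb7 read was 0.635, 0.685 and 0.837 in wild type and 1.52, 1.11 and 2.06 in mutant libraries. Itgae reads for each Itga4 read ran the other way, at 2.66, 2.48 and 1.99 in wild type and 1.12, 0.981 and 0.968 in mutant libraries. Neither of these ratios overlapped between genotypes, and each had an exact two-sided permutation p = 0.1, the smallest that 3 against 3 libraries allow. Itgae and Itgb7 themselves fell, against a median log2 fold change of 0.001 over all tested genes. Most genes thus gained against either chain, and these shifts are not particular to Itga4. The share of all genes without overlap in such a ratio was not computed. Both ratios belong to 10 ratios between genes computed here, chosen after values had been seen, and at this size none can pass 0.05.

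**Figure D1:**
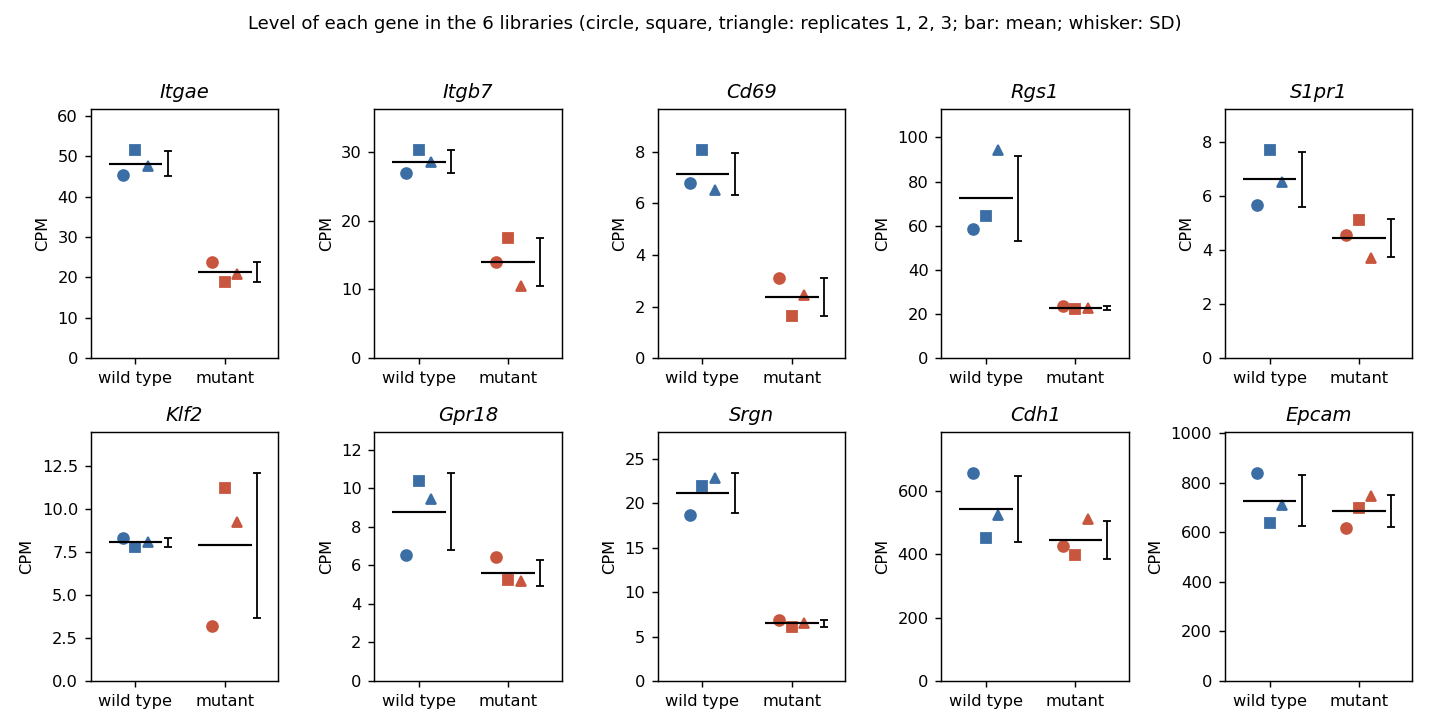
Level of each of the 10 genes in CPM (vertical axes from 0) in the 3 wild type and 3 mutant libraries; points are libraries, the bar is the mean and the whisker the SD. Itgae, Itgb7, Cd69, Rgs1 and Srgn are lower in every mutant library, Klf2 is spread from 3.17 to 11.2 CPM in the mutant, and Cdh1 and Epcam overlap between genotypes.

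Among the genes that hold lymphocytes back from leaving, Cd69 and Rgs1 both fell about as far as or farther than the integrin chains. Cd69 (chromosome 6, 129267325 to 129275436, minus strand) stood at 6.81, 8.06 and 6.52 CPM in the wild type libraries and fell to 3.10, 1.62 and 2.43 CPM in mutant replicates 1, 2 and 3. The mutant values rest on 45, 13 and 21 reads, and no mutant library reached the lowest wild type one. The log2 fold change was −1.53 ± 0.22 (edgeR adjusted p = 0.00369), from 7.13 ± 0.817 to 2.38 ± 0.742 CPM.

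Rgs1, a GTPase-activating protein that damps signalling from chemokine receptors (chromosome 1, 144242296 to 144249242, minus strand), was at 58.5, 64.4 and 94.1 CPM in wild type replicates 1, 2 and 3. In the mutant it was at 23.6, 22.1 and 22.6 CPM. Wild type replicate 3 stood above the other wild type libraries, whereas the mutant libraries lay close together. The log2 fold change was −1.67 ± 0.17 (edgeR adjusted p = 0.00160), and −1.43 without wild type replicate 3 (edgeR adjusted p = 6.02e-05).

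The exit receptor and its activator did not pass the test. S1pr1 (chromosome 3, 115710433 to 115715072, minus strand) gave 5.66, 7.68 and 6.52 CPM in the wild type libraries and 4.55, 5.11 and 3.70 CPM in mutant replicates 1, 2 and 3. The highest mutant library lay below the lowest wild type library, but the log2 fold change of −0.57 ± 0.19 had an edgeR adjusted p = 0.133 (95% interval −0.99 to −0.16, not adjusted for the number of genes). Klf2 (chromosome 8, 72319033 to 72321656, plus strand) gave 8.32, 7.79 and 8.05 CPM in the wild type libraries and 3.17, 11.2 and 9.25 CPM in mutant replicates 1, 2 and 3. Mutant replicate 1 was the lowest of the 6 libraries and the other mutant libraries were the highest. Its log2 fold change was −0.10 ± 0.41 (95% interval −1.08 to 0.88, edgeR adjusted p = 0.928), and 0.34 without mutant replicate 1 (edgeR adjusted p = 0.349), so a fall of Klf2 as large as that of Itgb7 lies within its interval.

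Set against Cd69, which takes its protein off the cell surface, S1pr1 took a larger share in the mutant: each Cd69 read came with 0.831, 0.954 and 1 S1pr1 reads in wild type replicates and with 1.47, 3.15 and 1.52 in mutant replicates. The groups did not overlap (exact two-sided permutation p = 0.1, the smallest possible). Cd69 itself changed by −1.53 in log2, against a median of 0.001 over all tested genes. Most genes thus gained against Cd69, and the gain is not particular to S1pr1. S1pr1 reads for each Klf2 read overlapped, at 0.680, 0.986 and 0.809 against 1.43, 0.456 and 0.4 (exact two-sided permutation p = 0.6). Rgs1 reads for each Cd69 read overlapped too, at 8.60, 7.995 and 14.4 against 7.62, 13.6 and 9.29 (p = 1 by the same exact test).

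S1pr1 and Klf2 are also made by endothelial cells and B cells, so their levels were read beside markers of both. The 12 endothelial markers summed to 17.9 to 23.4 CPM in wild type against 20.5 to 23.3 CPM in the mutant. Of the 8 tested, Vwf, the von Willebrand factor gene, was higher (log2 fold change 0.96 ± 0.18, edgeR adjusted p = 0.0169), beside 1.04% higher over all genes. The call of Vwf ended when wild type replicate 2 or any single mutant library was removed. The part of these cells in the levels of S1pr1 and Klf2 was not tested.

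Serglycin (Srgn), the proteoglycan on which cytotoxic granules store their granzymes, had the lowest edgeR adjusted p of the 10 genes. Srgn (chromosome 10, 62493833 to 62527451, minus strand) was at 18.7, 22 and 22.9 CPM across the wild type libraries and at 6.89, 6.11 and 6.48 CPM in mutant replicates 1, 2 and 3. The mutant libraries lay close together and all below the lowest wild type library. The log2 fold change was −1.70 ± 0.13 (edgeR adjusted p = 7.09e-05), so the mutant mean was 30.6% of the wild type mean. Gzma encodes granzyme A, a protease of these granules, and the number of Srgn reads for each Gzma read was 0.224, 0.2103 and 0.194 in wild type and 0.319, 0.293 and 0.455 in mutant libraries (exact two-sided permutation p = 0.1, the smallest possible). Gzma itself changed by −2.42 in log2, against a median of 0.001 over all tested genes. Most genes thus gained against Gzma, and the gain is not particular to Srgn. Gpr18, a receptor whose loss in mice lowers the number of intraepithelial lymphocytes in the small intestine (chromosome 14, 121911253 to 121915781, minus strand), was at 6.53, 10.4 and 9.46 CPM across the wild type libraries and at 6.41, 5.24 and 5.21 CPM across the mutant ones. Wild type replicate 1 lay just above the highest mutant library, so the groups were barely apart. Its log2 fold change of −0.63 ± 0.20 did not pass (95% interval −1.06 to −0.20, edgeR adjusted p = 0.115), but with wild type replicate 1 left out Gpr18 did pass (−0.80, edgeR adjusted p = 0.0361). Gpr18 lies inside Ubac2, which is on the opposite strand and shares no exon with it.

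The epithelial partners were abundant and overlapped between genotypes. Cdh1, E-cadherin (chromosome 8, 106603351 to 106670246, plus strand), was at 655.2, 450.0 and 521.9 CPM across the wild type libraries and at 424.4, 398.0 and 511.4 CPM in mutant replicates 1, 2 and 3. Wild type replicates 1 and 3, but not 2, lay above all mutant libraries. The log2 fold change was −0.29 ± 0.15 (95% interval −0.62 to 0.04, edgeR adjusted p = 0.337). Epcam, a homophilic adhesion protein of epithelial cells that steadies claudins (chromosome 17, 87635979 to 87651129, plus strand), was at 839.4, 636.8 and 709.4 CPM across the wild type libraries and at 616.6, 699.8 and 746.2 CPM across the mutant ones. Its log2 fold change was −0.08 ± 0.14 (95% interval −0.38 to 0.21, edgeR adjusted p = 0.782) and 0.03 without wild type replicate 1. For neither gene does the interval reach the fall of Itgae. Each Epcam read came with 0.781, 0.707 and 0.736 Cdh1 reads in wild type replicates and with 0.688, 0.569 and 0.685 in mutant replicates. These ratios did not overlap (exact two-sided permutation p = 0.1, the smallest possible). The edgeR test of Cdh1 relative to Epcam reads did not pass (log2 change −0.19 ± 0.17, edgeR adjusted p = 0.731). The share of all genes without overlap in such a ratio was not computed, and in CPM it was 24.1%.

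Counted without regard to the test, 7 of the 10 genes had no overlap between the groups in CPM, all of them lower in the mutant. Of all tested genes 24.1% had no overlap, and 11.8% had none with the mutant lower. The exceptions were Klf2, Cdh1 and Epcam.

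Scaled per kilobase of annotated exon, so that genes can be compared, Epcam had the highest level in wild type at 332 ± 46.8 RPKM, followed by Cdh1 at 119 ± 22.8 RPKM. Itgae (10.5 ± 0.663 RPKM), Rgs1 (10.4 ± 2.74), Itgb7 (10.3 ± 0.587) and Srgn (9.65 ± 1.01) came next, each overlapping its neighbour in this order. Gpr18 (5.86 ± 1.34) and Klf2 (4.36 ± 0.144) were lower and overlapped each other, and S1pr1 (2.17 ± 0.334) and Cd69 (1.10 ± 0.126) were lowest, without overlap. In the mutant libraries the order of the lymphocyte genes differed: Itgb7 (5.05 ± 1.25), Itgae (4.64 ± 0.547), Klf2 (4.27 ± 2.27), Gpr18 (3.75 ± 0.459), Rgs1 (3.28 ± 0.117) and Srgn (2.96 ± 0.179) followed one another. The first 4 of these overlapped their neighbours, while Rgs1 lay below every Gpr18 value and Srgn below every Rgs1 value. S1pr1 (1.46 ± 0.233) and Cd69 (0.366 ± 0.114) were again the lowest. Exon length here is the union over all annotated transcripts, which lowers the value of genes with long rare forms.

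The comparison of the lymphocyte side with the epithelial side was then made within each library, as reads of each gene for every 1000 summed reads of Cdh1 and Epcam. Relative to these partners 5 of the 8 lymphocyte genes were lower in the mutant, the same 5 as before, and none was higher, where 1.46% of all tested genes were called lower and 2.01% higher on this scale (3.47% in all). The scale moves the median of all genes by 0.15 in log2. Itgae had 30.4, 47.3 and 38.6 reads for every 1000 partner reads in wild type and 23.0, 17.3 and 16.6 in mutant replicates 1, 2 and 3 (log2 change −1.03 ± 0.20, edgeR adjusted p = 4.46e-05). Rgs1 had 39.1, 59.3 and 76.4 against 22.7, 20.1 and 17.9 reads (−1.52 ± 0.20, edgeR adjusted p = 4.90e-12). For these genes the fit on this scale took a variance pooled over genes in place of each gene's own spread over its libraries. Its p and intervals can therefore overstate the evidence, and the whole-table test gave Rgs1 an edgeR adjusted p = 0.00160.

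On the same scale Srgn changed by −1.56 ± 0.24, Cd69 by −1.39 ± 0.31 and Itgb7 by −0.87 ± 0.22 (edgeR adjusted p = 3.11e-08, 0.000607 and 0.00340). For these 5 genes no mutant library reached the lowest wild type library. The share of all tested genes with that pattern was not computed on this scale, and in CPM it was 11.8%. The call of Itgb7 ended without mutant replicate 3 (edgeR adjusted p = 0.174), without wild type replicate 2 (0.0945) and against Cdh1 alone (0.0633). Against Cdh1 alone its groups also overlapped. S1pr1 (−0.43, 95% interval −0.99 to 0.12), Gpr18 (−0.50, 95% interval −1.02 to 0.01) and Klf2 (0.06, 95% interval −0.44 to 0.57) overlapped between genotypes and did not pass (edgeR adjusted p = 0.515, 0.366 and 0.941). The Klf2 interval on this scale rests on the pooled variance, and the whole-table fit gave a wider one, −1.08 to 0.88. The narrower interval therefore does not exclude a fall of Klf2 as large as that of Itgb7. Taken singly, an exact permutation test over 3 against 3 libraries cannot go below p = 0.1, and each of the 5 called genes reached that value.

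**Figure D2:**
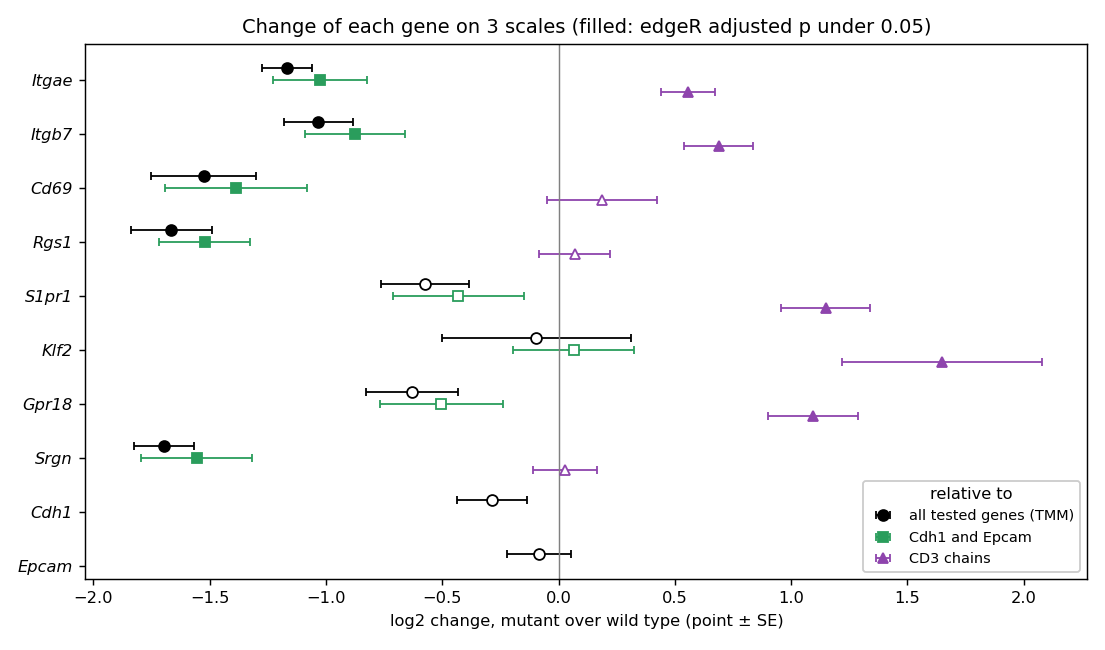
Log2 change in the mutant over wild type (horizontal axis, point ± SE) of each gene relative to all tested genes, to Cdh1 and Epcam reads, and to CD3 chain reads; filled points have an edgeR adjusted p under 0.05. Itgae, Itgb7, Cd69, Rgs1 and Srgn lie below 0 on the first 2 scales, and on the third Cd69, Rgs1 and Srgn lie near 0 while the others lie above it.

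Since T cell transcripts as a whole were lower, each lymphocyte gene was also set against the summed reads of Cd3d, Cd3e and Cd3g, the chains that carry the T cell receptor signal. Their sums were 1151, 1493 and 1348 reads in wild type and 254, 136 and 135 reads across the mutant libraries. On this scale 5 of the 8 genes were called higher and none lower. Of all tested genes 95.7% were called, 95.7% higher and 0.0358% lower, with a median log2 change of 1.73, so a call of higher is the rule here and each value is read against both 0 and that median. Srgn (0.03 ± 0.14), Rgs1 (0.07 ± 0.15) and Cd69 (0.19 ± 0.24) did not pass the test of a difference from the CD3 chains (edgeR adjusted p = 0.842, 0.658 and 0.448, with 95% intervals of −0.27 to 0.33, −0.26 to 0.40 and −0.33 to 0.70). Srgn had 353, 395 and 398 reads for every 1000 CD3 reads in wild type and 394, 360 and 415 in mutant libraries.

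Itgae and Itgb7 fell by less than the CD3 chains. Itgae had 858, 924 and 828 reads for every 1000 CD3 reads in wild type and 1366, 1118 and 1341 in mutant replicates 1, 2 and 3, a log2 change of 0.56 ± 0.12 (edgeR adjusted p = 0.000578). Itgb7 had 509, 542 and 497 against 799, 1029 and 674 reads (0.69 ± 0.15, edgeR adjusted p = 0.000639). S1pr1 went from 107, 138 and 113 reads to 259.8, 302 and 237.0 (1.15 ± 0.19), and Gpr18 from 123, 186 and 165 to 366, 309 and 333 (1.09 ± 0.19; edgeR adjusted p = 8.22e-05 and 0.000134). Itgae, Itgb7, S1pr1 and Gpr18 all rose by less than the median of all genes on this scale, 1.73. Klf2 rose most but least evenly, from 157, 140.0 and 140.2 to 181, 662 and 593 reads (1.65 ± 0.43, edgeR adjusted p = 0.00734), close to the median of all genes.

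These signs depended on the T cell reference. Against the summed T cell marker list Itgae changed by −0.14 ± 0.12 and Itgb7 by −0.0008 ± 0.16, neither past the test (edgeR adjusted p = 0.271 and 0.996). Srgn (−0.67 ± 0.15), Rgs1 (−0.63 ± 0.16) and Cd69 (−0.51 ± 0.23) were lower on it (edgeR adjusted p = 0.000581, 0.00199 and 0.0471) and S1pr1 was higher (0.46 ± 0.20, 0.0411). Here 86.1% of all tested genes were called, 85.8% higher and 0.275% lower. The median log2 change of all genes was 1.03, above the S1pr1 value. In that list Ptprc (CD45), which all white blood cells carry, gave 31.3% to 33.9% of reads in wild type against 45.9% to 49.6% in the mutant. Against Ptprc alone the 5 genes that fell in the whole-table test were all lower and none of the 8 was higher, where 45.5% of all tested genes were called, 44.5% higher and 1.06% lower, with a median log2 change of 0.46. On this scale Itgae stood at −0.71 ± 0.15 and Itgb7 at −0.56 ± 0.17 (edgeR adjusted p = 0.000841 and 0.00948). On each of the 3 references S1pr1 stood above Itgae, Cd69, Rgs1 and Srgn, an order fixed by their changes in the whole-table test.

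**Figure D3:**
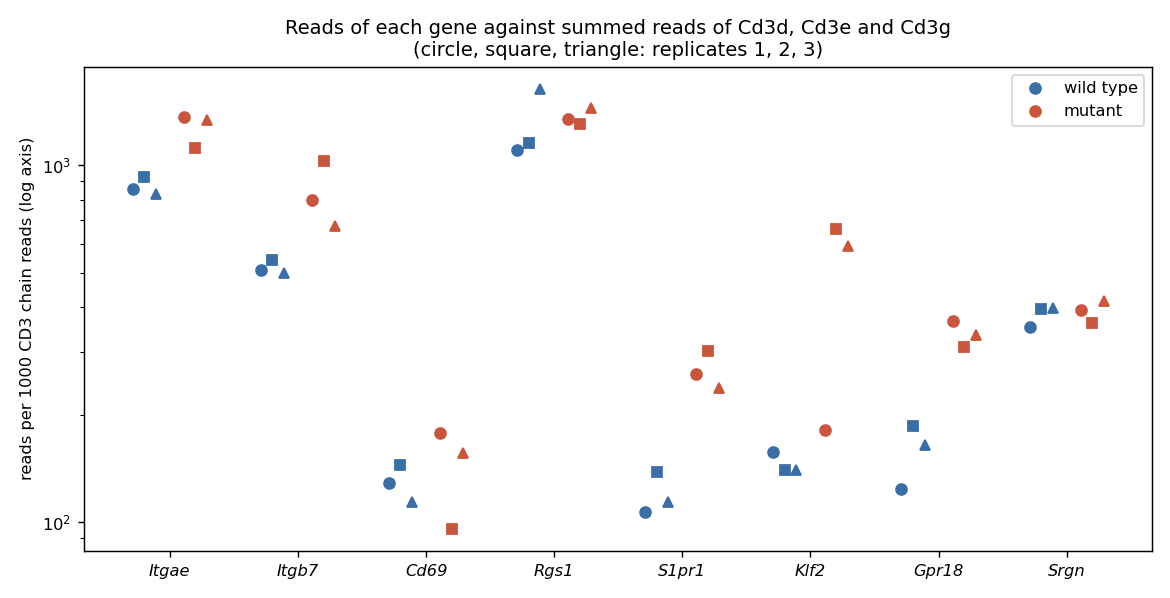
Reads of the 8 lymphocyte genes for every 1000 summed reads of Cd3d, Cd3e and Cd3g (vertical axis, log scale) in each of the 3 wild type and 3 mutant libraries. Srgn, Rgs1 and Cd69 overlap between genotypes, whereas Itgae, Itgb7, S1pr1, Klf2 and Gpr18 are higher in all 3 mutant libraries. Of all tested genes 95.7% were called higher on this scale.

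Genes beyond the 10 were read by lists of the same functions. In the tissue residency list, genes typical of lymphocytes that settle in a tissue, 6 of 17 tested members were lower and none higher, beside 1.52% lower over all genes, with a median log2 fold change of −0.58. Cxcr6, a chemokine receptor of resident T cells, fell from 14.6 ± 0.532 to 5.06 ± 1.02 CPM (−1.49 ± 0.16, edgeR adjusted p = 0.000415). Cd160, a receptor of intraepithelial lymphocytes, fell by 1.46, the chemokine Xcl1 by 1.87 and the transcription factor Hic1 by 1.18 on the log2 scale. Itga1, the alpha 1 integrin chain that binds collagen, changed by −0.58 ± 0.11 and Cd101 by −1.07 ± 0.25 (edgeR adjusted p = 0.0148 and 0.0458). Rgs2 (−0.64, edgeR adjusted p = 0.0724) and Entpd1 (−0.97, 0.159) came closest among those not called. Without mutant replicate 2 only 3 were called. Of the 17 tested, 13 lay below 0. Nr4a2 (0.40 ± 0.19), Prdm1 (0.24 ± 0.16), Runx3 (0.16 ± 0.26) and Bhlhe40 (0.06 ± 0.18) lay above 0, and none of them passed the test.

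The opposite list, egress and recirculation, had no member past edgeR's test among 13 tested, and a median of −0.33. Of them 3 had an unadjusted p under 0.05, DESeq2's Wald test called 1 and limma none, and edgeR called 1 without wild type replicate 2. Foxo1, a transcription factor that acts upstream of Klf2 (−0.54 ± 0.14, edgeR adjusted p = 0.0617), and Ly6c2 (−1.27 ± 0.45, 0.154) had the lowest p. The S1P receptors and enzymes of S1P turnover had none of 12 past edgeR's test, DESeq2's or limma's (4 at an unadjusted p under 0.05; median −0.10), with the receptor S1pr3 at −1.52 ± 0.44 (edgeR adjusted p = 0.0950) on under 1 CPM in wild type. The G protein subunit Gnai2, through which S1pr1 signals, was at −0.29 ± 0.09 (edgeR adjusted p = 0.111). Over all genes 3125 of 16757 had an unadjusted p under 0.05.

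Among lymphocyte integrins and their ligands 3 of 13 were lower, beside 1.52% lower over all genes. Besides Itga1 these were Itgb2, the beta 2 chain of leukocyte integrins (19.1 ± 2.92 to 11.4 ± 1.31 CPM, −0.73 ± 0.14, edgeR adjusted p = 0.0170), and Rasgrp1, an exchange factor that activates Ras below the T cell receptor (−0.80 ± 0.14, edgeR adjusted p = 0.00905). The integrin activator Tln1 was at −0.31 ± 0.09 (edgeR adjusted p = 0.0981) and Rap1b at −0.26 ± 0.09 (0.134). The count fell to 1 without mutant replicate 2 or wild type replicate 2. Madcam1, the vessel ligand of the integrin of the alpha 4 and beta 7 chains, had 0 CPM in all libraries.

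TGF-beta induces Itgae in T cells. In that pathway 1 of 14 genes was lower, beside 1.52% lower over all genes. It was the receptor Tgfbr2, from 75.5 ± 10.5 to 53.4 ± 4.52 CPM (−0.50 ± 0.11, edgeR adjusted p = 0.0408). This call ended when any library other than wild type replicate 3 was left out. The ligands Tgfb3 (−0.98 ± 0.25, edgeR adjusted p = 0.0617) and Tgfb2 (−1.08 ± 0.40, 0.176) did not pass. None of 9 regulators of G protein signalling passed edgeR's test, DESeq2's or limma's (4 at an unadjusted p under 0.05; median −0.24), with Rgs2 again nearest, though 1 passed without mutant replicate 1.

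The cytotoxic granule list, whose cargo Srgn binds, had 5 of 12 members lower, beside 1.52% lower over all genes, and a median of −1.18. Gzma fell by 2.42, Gzmb by 2.25, Nkg7 by 1.84, Gzmk by 1.73 and Fasl by 1.42 on the log2 scale (edgeR adjusted p = 0.000294, 0.000588, 0.000221, 0.00911 and 0.0157). Perforin, Prf1, was at −1.94 ± 0.48 (edgeR adjusted p = 0.0619) and the protease Ctsw at −0.67 ± 0.17 (0.0592). Without mutant replicate 3 the count was 3.

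On the epithelial side the lists stayed close to 0. None of 13 adherens junction genes passed edgeR's test (3 at an unadjusted p under 0.05, 1 by DESeq2, 0 by limma, and 1 by edgeR without wild type replicate 3), and the median was −0.13, with Nectin1 at 0.52 ± 0.17 (edgeR adjusted p = 0.135) and the cadherin-related Cdhr5 at −0.35 ± 0.13 (0.1897). Of 13 genes that bind or process Epcam protein 1 was higher, beside 1.04% higher over all genes. It was Fhl2, a LIM domain protein that takes part in signalling by the cleaved Epcam tail, from 11.5 ± 0.430 to 20.5 ± 3.47 CPM (0.82 ± 0.13, edgeR adjusted p = 0.00647). In the same list Cldn1 was at −1.51 ± 0.41 (edgeR adjusted p = 0.0790) and Cd44 at −0.26 ± 0.12 (0.274), and the median was −0.09. The count was 2 without wild type replicate 3.

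Markers of other cells gave the setting of these values. Among T cell markers the smallest p belonged to Cd7 (−2.08 ± 0.13), Cd3g (−1.99 ± 0.13) and Trac (−1.77 ± 0.16), the last being the constant part of the T cell receptor alpha chain. Of 7 tested markers of natural killer and innate lymphoid cells Klrk1 (−0.95 ± 0.21, edgeR adjusted p = 0.0333) and Id2 (−0.74 ± 0.11, 0.00525) were lower, beside 1.52% lower over all genes. The count was 1 without wild type replicate 2 or 3 or mutant replicate 2 or 3. Some dendritic cells also carry Itgae, and macrophage and dendritic cell markers had 4 of 13 lower, beside 1.52% lower over all genes, with a median of −0.12. Among the 4 were Fcer1g (−1.41 ± 0.24), Itgax (−0.99 ± 0.20) and Tyrobp (−1.11 ± 0.24). The summed level of the macrophage and dendritic cell markers was 99.4 to 110.5 CPM in wild type and 69.9 to 133 CPM in the mutant. Their count was 1 without mutant replicate 2, mutant replicate 3 or wild type replicate 2, and 2 without mutant replicate 1 or wild type replicate 3. Of the 13 tested, 9 lay below 0. C1qa (0.32 ± 0.27), C1qb (0.31 ± 0.28), C1qc (0.29 ± 0.26) and Adgre1 (0.05 ± 0.27) lay above 0, and none of them passed the test. The fibroblast list had 1 of 9 lower, beside 1.52% lower over all genes, namely Mfap5 (−1.75 ± 0.39, edgeR adjusted p = 0.0434). It had a median of −1.34, all 9 below 0 and 4 at an unadjusted p under 0.05. The fibroblast list summed to 338 to 984 CPM in wild type against 229 to 500 CPM in the mutant. The call of Mfap5 ended when wild type replicate 1 or 2, or mutant replicate 2 or 3, was removed, and the count was 2 without wild type replicate 3. None of 5 tested smooth muscle markers passed edgeR's test, DESeq2's or limma's (0 at an unadjusted p under 0.05; median −0.16), nor did any of 7 granulocyte and mast cell markers (4 at an unadjusted p under 0.05; median −0.26). None of 5 erythrocyte markers passed edgeR's or limma's test (median −0.82), but all 5 had an unadjusted p under 0.05 and all 5 passed DESeq2's, and 2 passed edgeR's without wild type replicate 2. The part of these cells in the changes of the 10 genes was not tested.

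**Figure D4:**
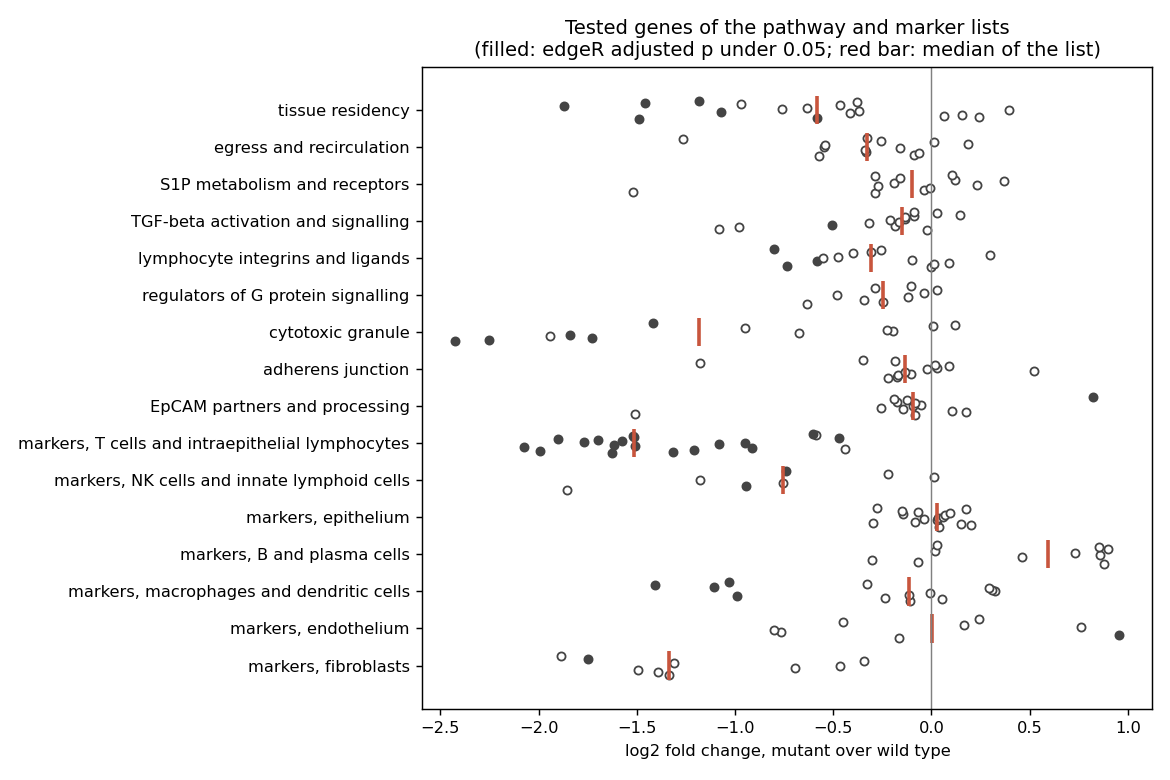
Log2 fold change in the mutant over wild type (horizontal axis) of every tested gene in the pathway lists and in the marker lists of T cells, other leukocytes, epithelium, endothelium and fibroblasts; filled points have an edgeR adjusted p under 0.05 and the red bar is the median of the list. Filled points lie to the left in the T cell, cytotoxic granule and tissue residency lists, and the epithelial and junction lists lie around 0.

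The genes most like Itgae in pattern over the 6 libraries, among 12976 others with a mean log2 CPM of at least 1, were Cst7 (Pearson's r = 0.997), Cd8a (0.997), Taldo1 (0.997), Laptm5 (0.995) and Cd52 (0.995). Cst7, Cd8a, Laptm5 and Cd52 are genes of leukocytes, and each was lower in the mutant, with log2 fold changes from −1.26 to −1.51. Taldo1, an enzyme of sugar metabolism, followed the same order of libraries over a small range, 153 to 128 CPM (−0.26 ± 0.09, edgeR adjusted p = 0.135). Of the other members Srgn (0.991), Cd69 (0.985) and Rgs1 (0.958) lay closest to Itgae, Itgb7 (0.896), Gpr18 (0.873) and S1pr1 (0.838) followed, and Cdh1 (0.534), Epcam (0.134) and Klf2 (0.03) lay farthest. For Cdh1 the most like genes were Lgr4, Tpi1, Tor1aip2, Asah1 and Raly (r = 0.990 to 0.993), none of which passed the test between genotypes. These r describe 6 libraries in which genotype and depth differ together.

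In the authors' deposited table the same 5 of the 10 genes had an adjusted p under 0.05. It rests on the same counts, so it is no independent support. The share of all its genes under 0.05 was not counted here. DESeq2's Wald test, as run here, called 672 of 16757 tested genes. The authors' deposited table gives Rgs1 a log2 fold change of −1.66 (adjusted p = 5.59e-17), Srgn −1.69 (1.52e-16) and Itgae −1.16 (4.50e-13). Itgb7 stands at −1.03 (6.90e-07) and Cd69 at −1.53 (5.96e-06) in the authors' deposited table. The other adjusted p in the authors' deposited table were 0.112 for Gpr18, 0.189 for S1pr1, 0.378 for Cdh1, 0.860 for Epcam and 0.966 for Klf2.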

How the data were processed

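Total RNA of colon epithelial fractions was made into stranded libraries after removal of ribosomal RNA, per the labels' protocols. Trimmomatic 0.39, STAR, HTSeq, DESeq2 and build GRCm38 are named in the submitters' processing notes; which annotation release was used, and whether counting used strand, is not given in the sources used here. The deposited table of raw counts lists reads by gene. Its 5 closing summary lines were dropped; of the alignments 18.5% to 27.6% fell in no annotated feature. The second deposited table gives the authors' normalized signal (100% of values equal the count multiplied by a library factor, within 1e-06 of the value), their log2 fold changes, test score and p-values.

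Tests on counts of all 6 libraries used edgeR 4.0.16 (R 4.3.3) with filterByExpr, TMM and a robust quasi-likelihood F test on genotype. SE was taken as the absolute log2 fold change over the root of F. For ratios to Cdh1 and Epcam or to CD3 chains, their summed counts replaced the library size. Alternatives used limma 3.58.1 and DESeq2 1.42.0. On simulated counts for mutant against wild type over 16757 genes, the test recovered 73% of genes changed 2-fold and 92% of those changed 4-fold, with 12 false calls. Libraries of a group differed beyond sampling noise (chi-square per degree of freedom 8.19 to 22.0). Positions and exon lengths came from GENCODE M21 (GRCm38), whose names matched 45143 gene rows.

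The members, the 19 lists and the rule for named genes were chosen with earlier results of these data known. The rule takes all members, of each pathway list up to 6 called and 2 uncalled genes with the smallest p, of each marker list up to 3 called genes or the 2 most abundant, and the 5 genes most like Itgae and Cdh1. Genes named beyond it, such as Itga4, Madcam1 and Ptprc, were chosen after their values were seen. Intervals are 95% and not adjusted for the number of genes.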

Additional observations from a re-analysis of the deposited data

How the results depend on the processing

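The 5 calls (Itgae, Itgb7, Cd69, Rgs1 and Srgn) held in all 15 alternatives of the whole-table test, with the count of members at 5 or 6 when a library was left out. Over all genes 430 were called; the count was 672 with DESeq2's Wald test, 1493 with no filter on low counts, and 174 to 674 when 1 library was left out. Without a filter Gpr18 passed (edgeR adjusted p = 0.00911). With a replicate block 5 members and 360 genes were called, and 5 and 5 members on the Cdh1 with Epcam and the CD3 scale. Same-numbered libraries had deviations correlated at −0.126, 0.128 and −0.022. These values showed no pairing by replicate number but, with 3 libraries in each group, cannot exclude it.

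Where 1 library was left out, signs turned for genes not called: Klf2 ranged from −0.46 to 0.34 and Epcam from −0.17 to 0.0282; relative to Cdh1 and Epcam, Klf2 ranged from −0.33 to 0.45; relative to CD3 chains, Cd69 ranged from −0.0398 to 0.38, Rgs1 from −0.0341 to 0.27 and Srgn from −0.025 to 0.0759. Relative to Cdh1 and Epcam, Klf2 was also below 0 with the replicate block (−0.0373), against Epcam alone (−0.0261) and against the epithelial marker list (−0.0867). In place of CD3 chains, the T cell marker list gave −0.14 for Itgae, −0.0008 for Itgb7, −0.51 for Cd69, −0.63 for Rgs1 and −0.67 for Srgn, and Ptprc alone gave −0.71, −0.56, −1.07, −1.20 and −1.23 for them, −0.10 for S1pr1 and −0.15 for Gpr18. By construction these turns follow from the reference, since both fell by less than the CD3 chains. Depth limits Cd69 most, at 13 to 45 reads in mutant libraries.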
